A study of Mus musculus and Homo sapiens with 40 samples.

Results

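Nt5e, Msi2, Sox4, Myc, Bcl2, Hoxa7, Hoxa9, Hoxa10, Mycn and Cd34 are 10 genes tied to leukemia, to the self-renewal of blood stem cells or to control by the p30 isoform of the transcription factor CEBPA. Each gene was taken as its GENCODE gene body with 50 kb on both sides in the mouse mm39 build, and the 3 Hoxa genes were taken as 1 cluster. This gave 8 loci that span 1469 kb, out of 21757 protein-coding genes whose loci were cut with the same flank. A peak was counted in a locus when its summit lay there.

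CEBPA is a leucine zipper factor that drives blood progenitors toward granulocytes. The full-length isoform p42 carries the whole activation region, while p30 starts at an internal start codon, lacks the N-terminal part and keeps the DNA-binding domain. Leukemias with N-terminal CEBPA mutations make p30 in place of p42. Acetylation of histone H3 at lysine 27 (H3K27ac) marks active promoters and enhancers, and monomethylation at lysine 4 (H3K4me1) marks enhancers, active or primed.

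All cells were HPC-7, a mouse progenitor line grown with stem cell factor, have very little CEBPA of their own, and carried a retroviral construct for p42 or p30 fused to ERT2, a fragment of the estrogen receptor that keeps the protein out of the nucleus until 4-hydroxytamoxifen is added. H3K27ac was measured in p42 and p30 cells, untreated or after 2 h of LPS at 100 ng/mL, with 3 samples pooled into each of the 4 lists of peaks. H3K4me1 came from untreated cells, with 2 samples pooled per line. The study's methods give 4-hydroxytamoxifen to cells with ERT2 fusions the day before an experiment, while the sample labels do not name it, and untreated here means without LPS. CEBPA was mapped in untreated cells with 1 library for each antibody and line, using anti-CEBPA, which sees any CEBPA, and anti-ER, which sees the fusion. Each isoform was carried by 1 transduced line, so the line and the isoform cannot be told apart, and with 1 list per group the values below have no replicate check and no test.

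The 10 lists held 23248 to 168035 peaks, and the rank of a peak was counted from 1 for the highest −log10 p in its own list. Anti-CEBPA gave 47517 peaks in p42 and 31851 in p30 cells, and anti-ER 23248 and 34006. The same rank is thus a different share of each list, and ranks set side by side below do not adjust for this. For H3K27ac there were 129369 peaks in untreated p42 cells, 107141 in p42 with LPS, 139210 in untreated p30 and 142419 in p30 with LPS. H3K27ac lay at the starts of 8 of 10 genes that mark blood progenitors in untreated p42 cells and of 7 in untreated p30 cells, and at 0 of 6 starts of genes of other tissues in every list. Of all protein-coding starts, 46.3% had a peak in untreated p42 and 45.8% in untreated p30 cells. The peak counted at Lmo2 was weak, at ranks 94565 and 112754 with fold enrichments of 2.55 and 2.62 in the same order. Gata2 and Erg were the marker genes without a peak at the annotated start in all lists, and Fli1 had none in untreated p30 cells.

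The CEBPA sites that the rest of the text turns on are shown first, as 100 bases of the GRCm39 plus strand around the anti-CEBPA summit. Each is the anti-CEBPA site of its locus that stood highest as a percent of its list, among those that anti-ER also found in the same line, or a site found with both antibodies in one line and with neither in the other. Capitals mark the CEBP sequence TTGCNNAA and the composite CEBP:AP1 sequence TGANGCAA, read on both strands. The 2 patterns share the letters GCAA.
Myc, chr15:61855414-61855513, in the noncoding gene Gm62825 upstream of the start: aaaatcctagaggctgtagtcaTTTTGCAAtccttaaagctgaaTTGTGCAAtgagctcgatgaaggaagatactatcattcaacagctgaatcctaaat
Sox4, chr13:29172722-29172821, in the noncoding gene A330102I10Rik upstream of the start: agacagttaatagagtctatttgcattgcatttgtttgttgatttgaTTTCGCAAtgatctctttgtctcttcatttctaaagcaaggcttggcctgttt
Msi2, chr11:88291126-88291225, intron: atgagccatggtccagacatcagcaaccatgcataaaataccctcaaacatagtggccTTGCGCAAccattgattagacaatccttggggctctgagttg
Bcl2, chr1:106592775-106592874, intron: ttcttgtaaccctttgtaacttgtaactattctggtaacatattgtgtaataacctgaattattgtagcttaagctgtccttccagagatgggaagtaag
Cd34, chr1:194671410-194671509, in the noncoding gene Gm16897 downstream of Cd34: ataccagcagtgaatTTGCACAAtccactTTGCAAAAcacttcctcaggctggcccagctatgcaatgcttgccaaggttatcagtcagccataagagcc
Cd34, chr1:194619065-194619164, in Gm16897 upstream of the start, p30 cells alone: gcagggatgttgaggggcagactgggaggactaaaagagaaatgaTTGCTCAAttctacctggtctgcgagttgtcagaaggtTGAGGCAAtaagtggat
Nt5e, chr9:88239378-88239477, intron: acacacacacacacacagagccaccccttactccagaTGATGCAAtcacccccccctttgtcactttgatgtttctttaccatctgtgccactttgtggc
Nt5e, chr9:88248936-88249035, intron, p42 cells alone: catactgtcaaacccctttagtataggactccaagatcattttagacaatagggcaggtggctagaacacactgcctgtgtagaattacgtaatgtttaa
Of these 8 windows, those of Myc, Sox4, Msi2 and both of Cd34 held the CEBP letters. The Nt5e window shared by the lines held only the composite, and the Bcl2 window and the Nt5e window of p42 cells held neither.

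Taken as one stretch, the 8 loci had a larger covered share of both histone marks than the median of single loci. The 2 measures are unlike, because the pooled share counts long loci more, and no pooled share of all loci was computed. Peaks of H3K27ac covered 13.2% of their sequence in untreated p42 cells, 11.7% in p42 cells with LPS, 14.1% in untreated p30 cells and 13.7% in p30 cells with LPS, against medians of 6.68%, 5.44%, 6.87% and 6.73% over all protein-coding loci. H3K4me1 covered 15.7% in p42 and 20.4% in p30 cells, against medians of 2.38% and 3.37%. The loci differed widely among themselves, from Cd34, Nt5e and Bcl2, which were covered most in each of the 6 lists of histone marks, to Mycn and the Hoxa cluster, which lay below the medians in all of them. For H3K27ac in untreated p42 cells, Nt5e lay above 91.9% of protein-coding loci, Cd34 above 83.8% and Bcl2 above 74.9%. Sox4 lay above 62.9%, Myc above 57.8%, Msi2 above 54.5%, the Hoxa cluster above 40.3% and Mycn above 28.6%.

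**Figure D1:**
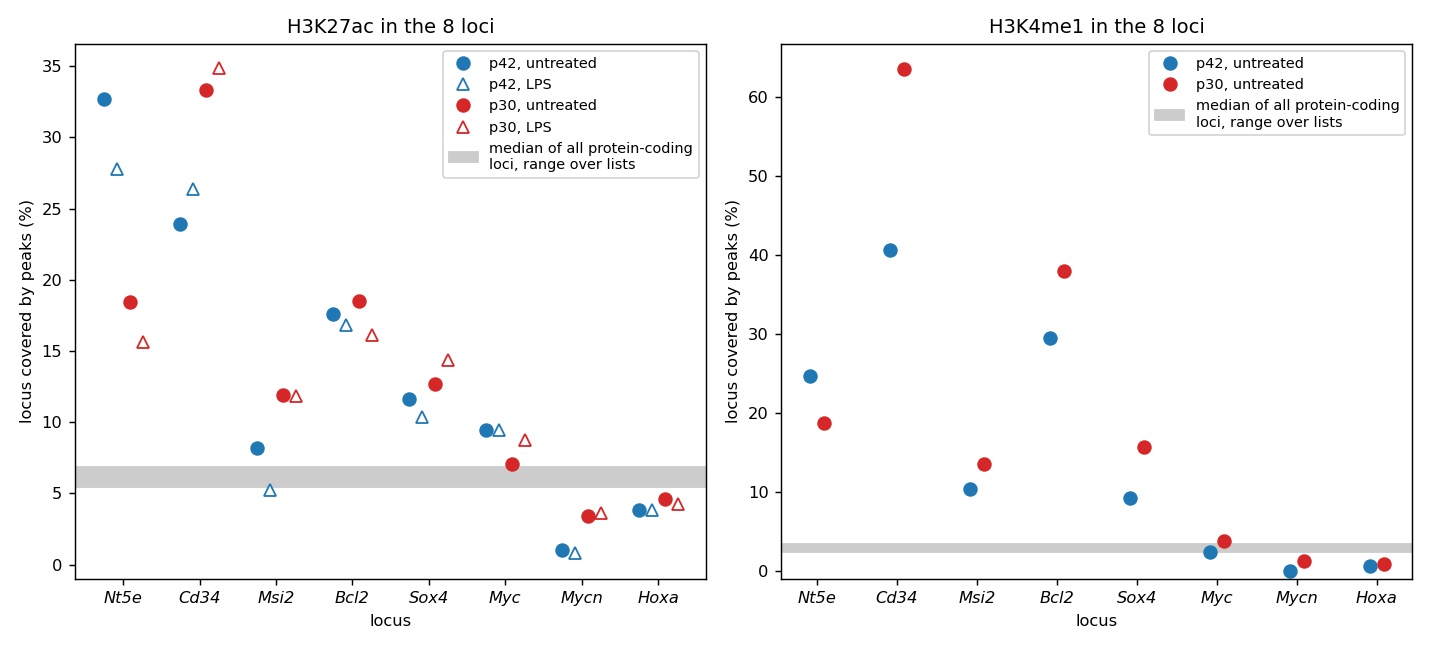
Share of each locus covered by peaks of H3K27ac (left, 4 lists) and H3K4me1 (right, 2 lists), in percent; blue is p42, red is p30, open triangles are LPS, and the grey band spans the medians of all protein-coding loci over the lists. Nt5e was higher in p42 than in p30 cells for both marks, and Cd34 was higher in p30 cells for both marks.

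A ratio of covered sequence between 2 lists was called when it passed 1.5-fold, in loci where either list covered at least 1000 bp. Between untreated p30 and p42 cells Mycn was called higher, where 6.76% of the protein-coding loci were, and Nt5e was called lower, where 5.03% were. With LPS, Msi2 and Mycn were higher in p30 cells against 18.7% of all loci, and Nt5e was lower against 2.05%. LPS left 0 of the 8 loci called in p30 cells, where 3.66% of all loci were higher and 2.58% lower. In p42 cells, Msi2 was called lower with LPS against 13.6% of all loci, and 0 were called higher against 0.989%. H3K4me1 was called higher in p30 cells at Sox4, Myc, Mycn and Cd34, but 36.4% of all loci were too, and 0 were called lower against 6.41%.

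**Figure D2:**
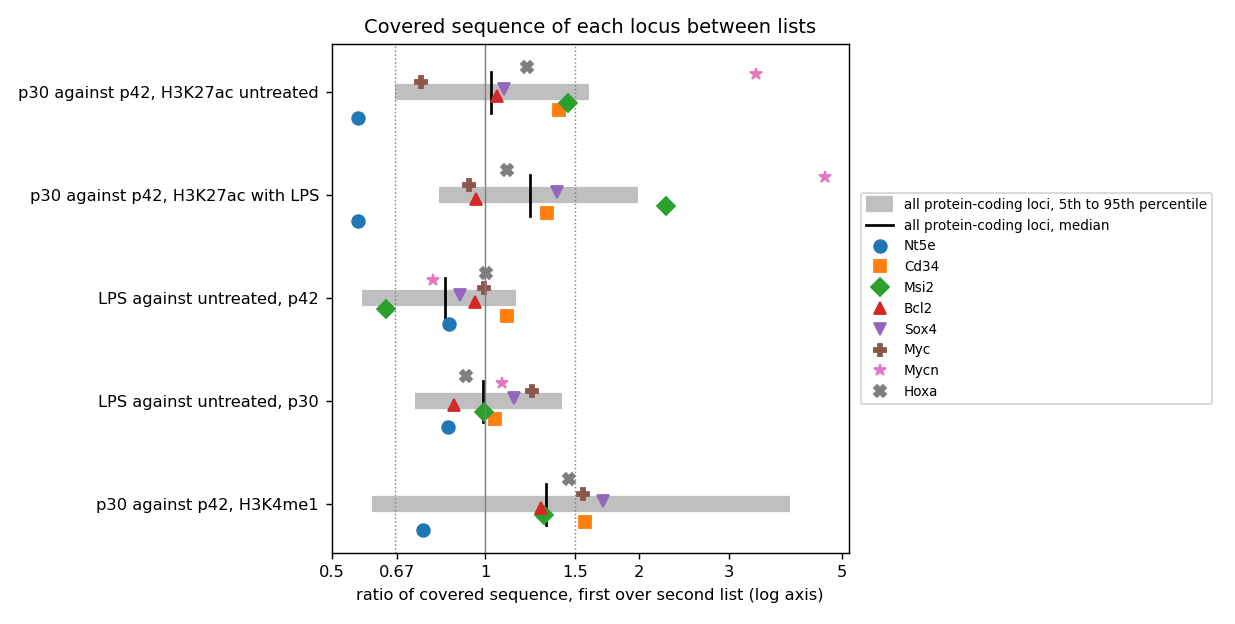
Ratio of covered sequence between 2 lists for each locus (symbols, log axis), with the 5th to 95th percentile (grey bar) and the median (black tick) of all protein-coding loci; dotted lines mark 1.5-fold either way, and Mycn has no ratio for H3K4me1 because p42 cells had no peak there. Nt5e at 0.56 and Mycn at 3.40 lay outside the grey bar in untreated cells, and Nt5e at 0.56, Msi2 at 2.26 and Mycn at 4.63 lay outside it with LPS.

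Nt5e encodes CD73, a surface enzyme that makes adenosine from AMP. Its locus, chr9:88159089-88304146, was 32.7% covered by H3K27ac in untreated p42 cells and 27.7% with LPS, and 18.4% covered in untreated p30 cells and 15.6% with LPS. Both p30 values lay below both p42 values, and the 0.56-fold ratio of the untreated lists was undercut by 2.29% of protein-coding loci. With the same number of peaks drawn from each list the ratio was 0.54 untreated and 0.51 with LPS.

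Of 43 acetylated regions in the Nt5e locus, 17 were in untreated p42 cells only, 1 in untreated p30 cells only and 18 in both. Over all regions these classes made up 16.3%, 22.3% and 43.3%. No H3K27ac peak lay at the start of Nt5e in any list, nor within 2500 bp of it or at any of its 6 annotated transcript starts. The marked regions lay inside the gene and on both sides of it. The region outside promoters that ranked best in untreated p42 cells, chr9:88228314-88235715 in an intron of Nt5e, had ranks of 8153 and 9145 in p42 cells without and with LPS and of 17609 and 19341 in p30 cells. Its fold enrichment over input was 19.0 and 20.9 in p42 cells and 9.58 and 9.21 in p30 cells, so the p30 peaks were the weaker ones there. The gap was smaller at a region in Snx14 past the end of Nt5e, chr9:88257491-88265946, which ranked best in both p30 lists, at 11066 and 13063 without and with LPS, against 8178 and 11217 in p42 cells. An upstream region, chr9:88167171-88171014, ranked best in p42 cells with LPS, at 8873, with 9945 in untreated p42 cells and 11887 and 14193 in p30 cells. A further region in Snx14, chr9:88285541-88287716, had the better ranks in p30 cells, 12721 and 13591 against 16521 and 16959. The start of the neighbour Snx14, a sorting nexin gene, ranked 6401, 7812, 6367 and 7621 in the same 4 lists, with no such gap between the lines.

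H3K4me1 followed the same order at Nt5e, with 24.7% covered in p42 and 18.7% in p30 cells. The ratio was 0.76 where the median of all loci was 1.32, and 9.06% of loci had a lower one. CEBPA was found at 7 places in the locus, 4 of them with both antibodies in p42 cells and 1 with both in p30 cells. Anti-ER had 5 peaks in each line, so the lines differed in number by anti-CEBPA alone, with 6 in p42 and 1 in p30 cells. The whole anti-CEBPA list was also shorter in p30 cells, at 31851 against 47517 peaks. The shared site is the one shown above, 30.3 kb into the gene, where anti-CEBPA ranked 6012 in p42 and 7279 in p30 cells and anti-ER ranked 9208 and 10281. As a percent of its list it stood at 12.7 and 22.9 with anti-CEBPA and at 39.6 and 30.2 with anti-ER. By that measure the antibodies put the lines in opposite order. The site 21.7 kb into the gene, within the intronic region named above, ranked 1508 with anti-ER in p42 and 3631 in p30 cells, and with anti-CEBPA 13100 in p42 cells, without an anti-CEBPA peak in p30 cells. The site of p42 cells alone, 39.9 kb into the gene, was weaker, at 39408 with anti-CEBPA and 11960 with anti-ER, and no longer counted as found with both antibodies once a reciprocal overlap of 50% was asked for.

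Cd34 encodes a sialomucin on the surface of stem and progenitor cells. Its locus, chr1:194571029-194697172, was 23.9% covered by H3K27ac in untreated p42 cells, 26.4% in p42 cells with LPS, 33.3% in untreated p30 cells and 34.8% in p30 cells with LPS. The p30 lists were the higher ones in both conditions, but the ratios of 1.39 and 1.32 stayed under 1.5. H3K4me1 covered 40.6% of the locus in p42 and 63.5% in p30 cells, above 99.5% and 99.9% of all protein-coding loci. Its ratio of 1.56 had 67.3% of loci below it, and with lists of equal size it was 1.497, just under the limit.

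The peak at the start of Cd34 was broader and better ranked in p30 cells. It was 6387 bp wide at rank 9218 in untreated p42 cells, 9603 bp at 6815 in p42 cells with LPS, 12673 bp at 3309 in untreated p30 cells and 11126 bp at 3523 in p30 cells with LPS. Of 38 acetylated regions, 11 were in untreated p30 cells only and 0 in untreated p42 cells only, with 18 in both. Over all regions these classes made up 22.3%, 16.3% and 43.3%. The best-ranked region outside promoters, chr1:194674476-194679080, lay 56.9 kb downstream of the start and ranked 7553 and 7281 in p42 cells without and with LPS and 5682 and 5255 in p30 cells.

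CEBPA was found at 13 places around Cd34, of which 4 had both antibodies in p42 cells and 7 in p30 cells. Anti-CEBPA had 8 peaks in each line, so the lines differed in number by anti-ER alone, with 4 in p42 and 12 in p30 cells. The whole anti-ER list was also longer in p30 cells, at 34006 against 23248 peaks. A peak in p30 cells with none in p42 cells occurred at 5 of the 13 places, against 17.7% of all sites. The reverse occurred at 0, against 28.4% of all sites. Of the 5, 4 had a peak in a single list only. At 10.5 kb upstream of the start, p30 cells had the better ranks, 3598 with anti-CEBPA and 1733 with anti-ER, against 14665 and 4494 in p42 cells. The site shown 50.4 kb downstream ranked 5310 with anti-CEBPA and 824 with anti-ER in p42 cells, and 2209 with anti-ER in p30 cells, where anti-CEBPA had no peak. The site of p30 cells alone, 1.91 kb upstream of the start, ranked 14827 with anti-CEBPA and 23347 with anti-ER, and lay inside a domain of H3K4me1 that ranked 133 in p42 and 296 in p30 cells. The next site, 2.48 kb upstream, had an anti-CEBPA peak in both lines, at 23481 in p42 and 20664 in p30 cells. Anti-ER had a peak there in p30 cells, at 16403, and none in p42 cells. Of these neighbouring sites, p42 cells thus had an anti-CEBPA peak at the farther one and an anti-ER peak at neither.

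Msi2 encodes Musashi-2, an RNA-binding protein that maintains stem cells and leukemia cells. It is the longest member, and its locus, chr11:88180208-88659339, was 8.20% covered by H3K27ac in untreated p42 cells, 5.23% in p42 cells with LPS, 11.9% in untreated p30 cells and 11.8% in p30 cells with LPS. The peaks numbered 55, 36, 83 and 82 in the same order. The p42 list with LPS was thus the low one, and the p30 lists were alike.

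For Msi2 the ratio of p30 to p42 was 1.45 untreated, with 92.1% of loci below, and 2.26 with LPS, with 96.9% below. LPS against untreated gave 0.64 in p42 cells, where the median of all loci was 0.83, and 0.99 in p30 cells. With lists of equal size these became 1.31, 1.88, 0.67 and 0.96, so that the p42 ratio with LPS no longer passed 1.5-fold. Of 104 acetylated regions, 42 were in untreated p30 cells only and 11 in untreated p42 cells only, against 22.3% and 16.3% of all regions. With LPS, 19 regions were absent from the p42 list and 2 were added, against 22.6% and 8.52% of all regions. In the p30 list 25 were absent and 24 added, against 19.2% and 19.1%. The best-ranked region lost in p42 cells alone, chr11:88252100-88252668, was weak there at rank 88241, and ranked 28675 and 38221 in p30 cells without and with LPS.

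The difference at Msi2 lay away from the start, which ranked 4005 and 4830 in p42 cells without and with LPS and 4074 and 3985 in p30 cells. The best-ranked region outside promoters, chr11:88488463-88492289, 119 kb into the gene, ranked 4799 and 9875 in p42 cells and 5149 and 7156 in p30 cells. H3K4me1 covered 10.4% in p42 and 13.5% in p30 cells, a ratio of 1.30 close to the median of all loci.

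CEBPA was found at 14 places around Msi2, with both antibodies at 6 in p42 cells, at 6 in p30 cells and at 5 in both lines. The site shown, 318 kb into the gene, had anti-CEBPA ranks of 3695 and 6363 and anti-ER ranks of 7503 and 6325 in p42 and p30 cells, and no histone peak of any list lay on it. Its letters TTGCGCAA match the CEBP pattern on both strands. The anti-ER peak 86.4 kb into the gene was the strongest of the locus in p30 cells, at rank 986, against 4120 in p42 cells, while anti-CEBPA ranked 14771 in p42 and 19992 in p30 cells.

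Bcl2 encodes a mitochondrial protein that blocks apoptosis. Its locus, chr1:106415908-106692060, was 17.6% and 16.8% covered by H3K27ac in p42 cells without and with LPS, and 18.5% and 16.1% in p30 cells. The lists lay close together, with ratios of p30 to p42 of 1.05 untreated and 0.96 with LPS. The start of Bcl2 had the best-ranked peak among the members in every H3K27ac list, at ranks 1283, 792, 1776 and 1008, within the top 1.28% of each list. Vps4b, a neighbour that encodes an ATPase of membrane sorting, had a still stronger start, at ranks 43, 67, 46 and 116.

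The regions behind these totals differed between the lists. Of 96 in the Bcl2 locus, 22 were found only with LPS and 21 only without it in p42 cells, against 8.52% and 22.6% of all regions. In p30 cells these were 16 and 20, against 19.1% and 19.2%. Another 17 were in untreated p42 cells and not in untreated p30 cells, and 25 the reverse, against 16.3% and 22.3%. The best-ranked region outside promoters, chr1:106441969-106447452, lay 198 kb downstream of the start and ranked 6947 and 8612 in p42 cells and 8083 and 11392 in p30 cells. H3K4me1 covered 29.5% in p42 and 38.0% in p30 cells, above 97.7% and 97.5% of protein-coding loci.

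Bcl2 held the most CEBPA sites, 16, of which 11 were found with both antibodies in both lines. The site shown, 49.2 kb into the gene, ranked 1012 with anti-CEBPA in p42 and 2438 in p30 cells, and 7194 and 5232 with anti-ER. The region around it, chr1:106592436-106593347, was the best-ranked of those gained with LPS in p30 cells alone: H3K27ac ranked 41002 and 34592 in p42 cells, was without a peak in untreated p30 cells and ranked 82160 in p30 cells with LPS. At 35.9 kb into the gene the anti-CEBPA ranks were 1134 and 2346 and the anti-ER ranks 1076 and 2319, and at 131 kb they were 1528 and 1193, and 1665 and 2838. A site 187 kb downstream of the start, past the gene's end, had anti-CEBPA ranks of 1905 and 3783 and anti-ER ranks of 1895 and 2286, and carried H3K27ac in p42 cells, at 43260 and 60331 without and with LPS, but in neither p30 list. Both lines had all 4 of these sites with both antibodies.

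Sox4 encodes an HMG-box transcription factor active in progenitors and in many leukemias. Its locus, chr13:29082902-29187696, was 11.6% and 10.4% covered by H3K27ac in p42 cells without and with LPS, and 12.7% and 14.4% in p30 cells. The ratios of p30 to p42 were 1.09 untreated and 1.38 with LPS. The start ranked 7975 and 7673 in p42 cells and 6244 and 5072 in p30 cells. H3K4me1 covered 9.25% in p42 and 15.7% in p30 cells, a ratio of 1.70 that 73.0% of all loci did not reach, and 1.60 with lists of equal size.

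CEBPA was found at 5 places around Sox4 and with both antibodies in both lines at 1. That site, shown above, lies 35.1 kb upstream of the start in the long noncoding gene A330102I10Rik, and had anti-CEBPA ranks of 1538 and 1278 and anti-ER ranks of 3761 and 2019 in p42 and p30 cells. No peak of H3K27ac or H3K4me1 lay on it in any list. At the Sox4 start itself only anti-ER in p30 cells gave a peak, at rank 30882 of 34006. The best-ranked acetylated region outside promoters, chr13:29141397-29143599, 4.71 kb upstream of the start, ranked 12622 and 10482 in p42 cells and 14427 and 13678 in p30 cells.

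Myc and Mycn encode related helix-loop-helix factors that drive growth and division. The Myc locus, chr15:61807227-61912223, was 9.48% and 9.44% covered by H3K27ac in p42 cells without and with LPS, and 7.09% and 8.77% in p30 cells. Untreated p30 cells had the lowest value, a ratio to p42 of 0.75 that was undercut by 8.62% of loci, and with LPS the ratio was 0.93. The start peak ranked 8013 and 6964 in p42 cells and 13731 and 9520 in p30 cells, with fold enrichments of 26.3 and 26.3, and of 13.1 and 22.8. H3K4me1 was sparse at Myc, at 2.41% in p42 and 3.74% in p30 cells, a ratio of 1.55 that was 1.38 with lists of equal size.

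The strongest CEBPA site of all the loci by anti-ER lay 1.76 kb upstream of the Myc start. It ranked 1684 and 956 with anti-CEBPA in p42 and p30 cells and 547 and 420 with anti-ER, with fold enrichments of 28.9, 36.8, 31.0 and 52.3 in that order. The sequence shown holds 2 CEBP matches, and the site lies under the acetylated domain of the start in all 4 H3K27ac lists. CEBPA was found at 3 more places in the locus, each in both lines. Of the 4 sites, 3 had both antibodies in p42 cells and 3 in p30 cells.

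Myc is known for enhancers that lie far downstream of it, so its sequence was followed for 2 Mb in bins of 100 kb. H3K27ac was strong in the first bins, absent from 500 to 700 kb and nearly so from 900 to 1500 kb, and strong again from 1600 to 1800 kb. In the last bin, from 1900 kb, it covered 15.8 and 10.99 kb in p42 cells without and with LPS and 11.5 and 13.6 kb in p30 cells. In the bin from 1600 kb the mark covered 46.1 and 47.3 kb in p42 cells without and with LPS and 42.2 and 47.8 kb in p30 cells, more than in any other bin in each list. In the next bin it covered 21.8 and 22.5 kb in p42 and 14.6 and 18.1 kb in p30 cells. These 2 bins held 5 sites of both antibodies in p42 cells and 4 in p30 cells, and the best anti-ER peak there ranked 930 in p42 and 286 in p30 cells.

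**Figure D3:**
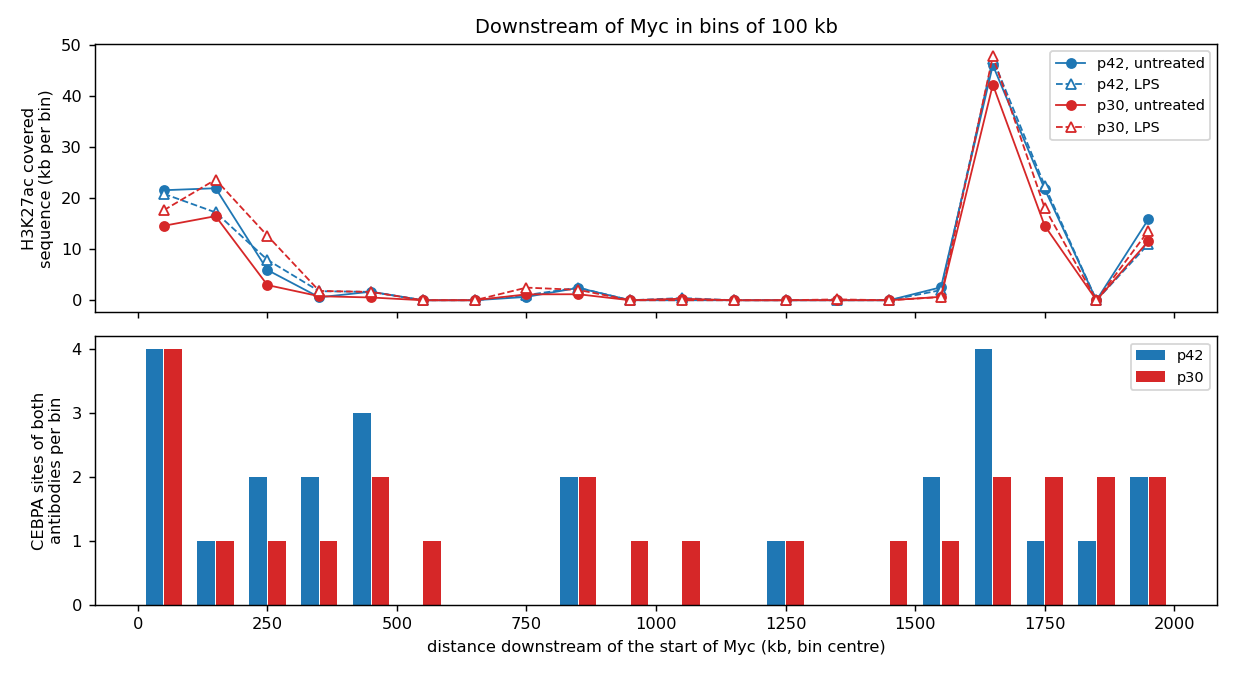
H3K27ac covered sequence per bin of 100 kb in the 4 lists (top, kb) and CEBPA sites found with both antibodies per bin (bottom, number) against the distance downstream of the Myc start (kb). In the bin from 1600 to 1700 kb the 4 lists covered 42.2 to 47.8 kb.

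Mycn was the least marked member beside the Hoxa genes, with 0.993% and 0.783% of its locus, chr12:12936076-13042915, under H3K27ac in p42 cells without and with LPS and 3.37% and 3.63% in p30 cells. The ratio of p30 to p42 was 3.40 untreated and 4.63 with LPS, above 99.5% and 99.4% of protein-coding loci, but it rests on 1 stretch of the gene. That region, chr12:12988338-12991865, ranked 29893 and 37837 in p42 cells and 19459 and 18186 in p30 cells, with fold enrichments of 5.59 and 4.19, and of 8.40 and 9.92. A second, narrow region, chr12:12992141-12992538, ranked 15190, 16426, 10037 and 12846 in the same order, and lay within 2500 bp of the start but outside the window counted as the start. Both regions were thus in all 4 lists and were stronger in p30 cells in both conditions. H3K4me1 had no peak in p42 cells and 3 in p30 cells, which covered 1.38 kb. CEBPA had no peak at Mycn with anti-CEBPA in either line, and anti-ER found 1 site in p30 cells, at rank 15849, 229 bp into the gene.

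Hoxa7, Hoxa9 and Hoxa10 encode homeobox factors that are high in stem cells and in many acute myeloid leukemias. Their locus, chr6:52141471-52267834, was 3.81% and 3.82% covered by H3K27ac in p42 cells without and with LPS, and 4.60% and 4.22% in p30 cells. Hoxa7 had a narrow peak at its start in every list, at ranks 9940, 8872, 10641 and 9394. Hoxa9 and Hoxa10 had no H3K27ac peak at their starts in any list, also within 2500 bp and at their other transcript starts. Of the other genes of the cluster, Hoxa3 had a peak at its start at ranks 11488, 13260, 10352 and 10155, and Hoxa6 only in p30 cells, at 85160 and 66942. Hoxa2, Hoxa4, Hoxa11 and Hoxa13 had none at theirs. Hoxa5 had none in its window either, but the acetylated region named in the next paragraph ended inside that gene, just short of the window. H3K4me1 covered 0.583% in p42 and 0.849% in p30 cells.

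The only CEBPA site of the Hoxa locus lay in the transcribed part of Hoxa5 and was found with both antibodies in both lines. It ranked 28188 with anti-CEBPA in p42 and 8813 in p30 cells, and 14049 and 5726 with anti-ER, so that p30 cells had the better rank with each antibody. The best-ranked acetylated region outside promoters, chr6:52180418-52181443, overlapped it and ranked 9518 and 11163 in p42 cells and 13548 and 14351 in p30 cells. As a percent of its list the region stood at 7.36 in untreated p42 and 9.73 in untreated p30 cells, and at 10.4 and 10.1 with LPS, so that the lines differed little once LPS was given.

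**Figure D4:**
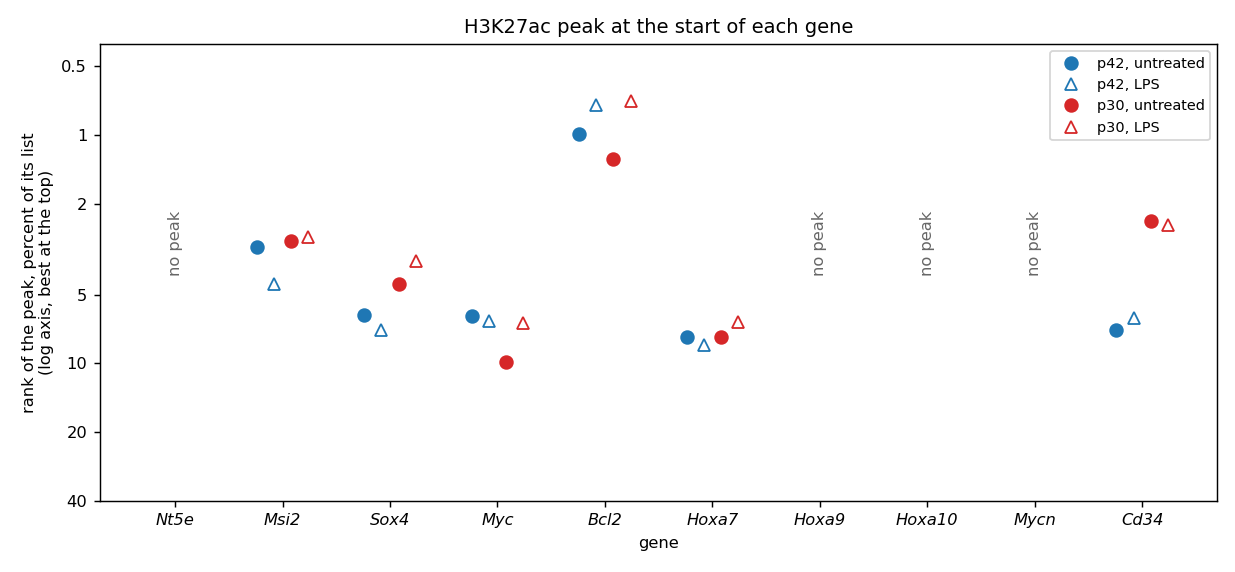
Rank of the H3K27ac peak at the start of each gene, as percent of its list (log axis, best at the top), in p42 (blue) and p30 (red) cells, untreated (filled) or with LPS (open). Bcl2 stood within the top 1.28% in the 4 lists, and Nt5e, Hoxa9, Hoxa10 and Mycn had no peak in the window from 1000 bp upstream to 100 bp downstream.

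Counted over the 10 starts, H3K27ac was present at 6 in each of the 4 lists, where 46.3%, 45.6%, 45.8% and 47.2% of all protein-coding starts had a peak in untreated p42, p42 with LPS, untreated p30 and p30 with LPS. The same 6 genes carried it in every list, namely Msi2, Sox4, Myc, Bcl2, Hoxa7 and Cd34. With the start of any annotated transcript, Mycn also had a peak in all 4 lists, at ranks 15190, 16426, 10037 and 12846. H3K4me1 lay at 3 starts in p42 and 4 in p30 cells, against 16.4% and 21.9% of all starts. CEBPA was rarely at the starts. Anti-CEBPA found 0 of the 10 in p42 and in p30 cells, against 5.91% and 5.65% of all starts, and anti-ER 0 in p42 and 2 in p30 cells, Sox4 and Mycn, against 5.14% and 8.63%.

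Of the 302 acetylated regions in the loci, 95 were in all 4 lists, or 31.5%, as were 30.9% of all 183190 regions. Regions of untreated p42 cells only made up 15.9% against 16.3% of all, and regions of untreated p30 cells only 27.2% (Wilson 95% interval 22.4 to 32.4) against 22.3%. With LPS, 34 regions were gained in p42 cells, or 11.3% against 8.52% of all, and 54 were lost, or 17.9% against 22.6%. In p30 cells 54 were gained and 54 lost, each 17.9%, against 19.1% and 19.2%. The intervals of the shares gained and lost included those of all regions, 8.17 to 15.3 and 14.0 to 22.6 in p42 cells and 14.0 to 22.6 for both in p30 cells, while that of the regions of untreated p30 cells only lay just above it. That excess came from Msi2, which held 42 of the 82. Without Msi2 the share was 20.2% (15.2 to 26.3), and that of regions gained in p42 cells was 16.2% (11.7 to 21.9). Bcl2 held 22 of the 34 regions gained in p42 cells, and without Bcl2 the gained share was 5.83% (3.36 to 9.90). With lists of equal size, 45 regions were gained and 41 lost in p42 cells, which turns their order, and 39 were gained and 54 lost in p30 cells.

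Gained and lost regions were weak ones, as regions missing from the other list tend to be by the way they are defined. No such ranks over all regions are given beside them, so this is no trait of these loci. Of the 54 regions lost in p42 cells the best ranked at 34.5% of its list, and of the 34 gained the best ranked at 44.1%, while 19 of the 113 regions kept lay in the top 10% untreated. In p30 cells the best lost and gained regions ranked at 34.9% and 33.5%, and 20 of 147 kept regions lay in the top 10%. The lines shared 7 gained regions and 4 lost ones. At Myc, 1 gained region was shared, chr15:61862401-61862780, 5.44 kb downstream of the start, at ranks 75481 and 73541 with LPS. It was named after its values were seen.

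CEBPA was found at 61 places in the loci, out of 63759 in the genome. Both antibodies in both lines gave 24, or 39.3% (28.1 to 51.9), against 20.9% of all sites, and a single list gave 16, or 26.2% (16.8 to 38.4), against 42.6%. The Bcl2 locus alone held 11 of these 24 sites and 1 of the 16, so both shares lean on that locus. Of the 16 sites of Bcl2, 11 had both antibodies in both lines, against 5 of 14 at Msi2, 3 of 13 at Cd34 and 1 of 7 at Nt5e. The shares without Bcl2 were not computed, and whether they differ from those of all sites was not tested. Sites of either antibody in p42 cells with none in p30 cells made up 7, or 11.5% (5.67 to 21.8), against 28.4%, and the reverse 11, or 18.03%, against 17.7%. The strict classes, both antibodies in one line and neither in the other, held 1 site each, at Nt5e for p42 and at Cd34 for p30, against 1.94% and 1.65% of all sites. These intervals cover counting error only, and the sites of a locus share their surroundings. Sites of both antibodies lay in 7 of the 8 loci in each line, all but Mycn, against 64.6% of protein-coding loci in p42 and 68.2% in p30 cells, whose loci are of other lengths.

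**Figure D5:**
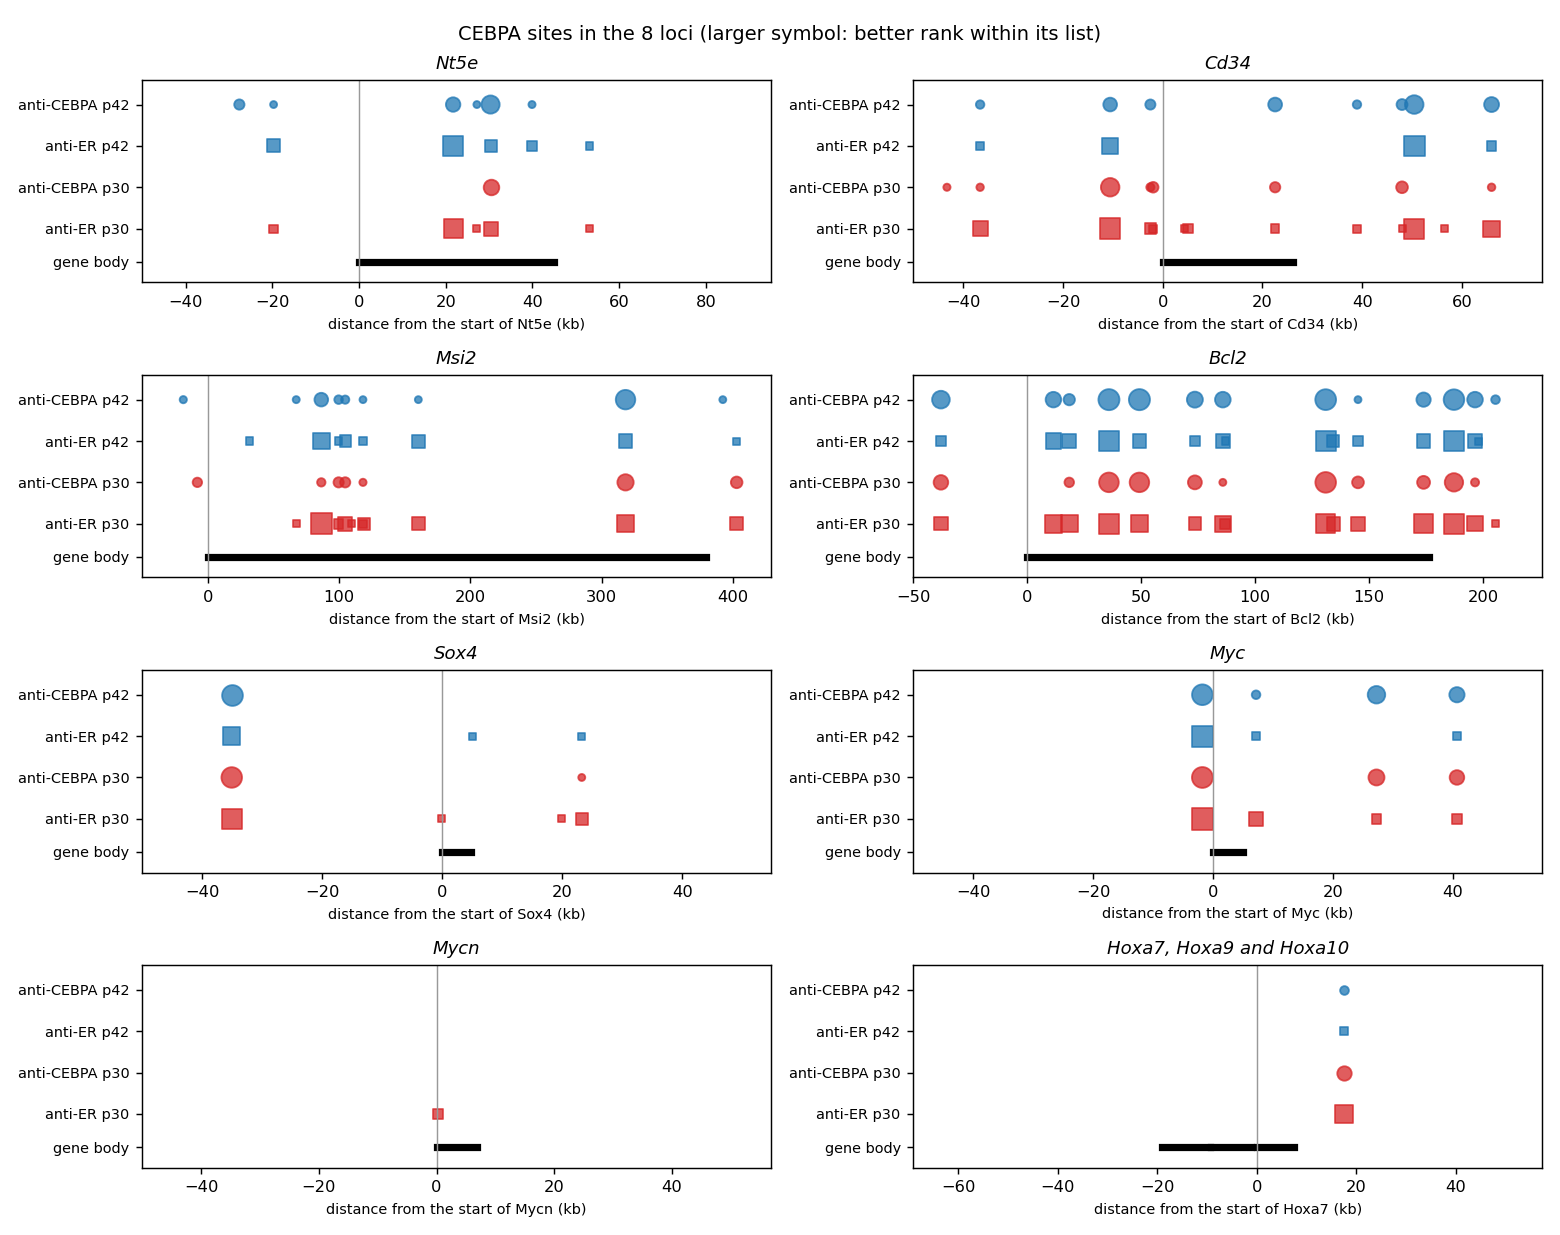
CEBPA sites along each locus by distance from the gene's start (kb, along the gene; Hoxa7 for the cluster), in rows for the 2 antibodies in p42 (blue) and p30 (red) cells; larger symbols rank better and black bars are gene bodies. Bcl2 has 16 sites, the top one of Myc lies 1.76 kb upstream of the start, and Mycn has 1 symbol.

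By annotation, 27 of the 61 sites lay in introns, 16 in long noncoding genes, 12 between genes, 4 in UTRs, 1 in a coding exon and 1 in a promoter. Most lay in marked chromatin. Of the 31 sites with both antibodies in p42 cells, 24 overlapped H3K27ac and 22 H3K4me1 of that line, or 77.4% and 71.0%, against 51.6% and 37.5% of all such sites. Of the 31 with both in p30 cells, 22 overlapped H3K27ac and 24 H3K4me1, or 71.0% and 77.4%, against 38.5% and 32.6%. The pooled covered share of the loci was above the median of single loci for both marks, and the part of this in these shares was not tested.

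The CEBP sequence lay within 200 bp around the summit of 38.1% (25.0 to 53.2) of 42 anti-CEBPA peaks in p42 and 36.4% (22.2 to 53.4) of 33 in p30 cells, where 50.7% and 53% of all such peaks had it. For anti-ER it was 38.5% of 39 and 38.5% of 52, against 51.7% and 47%. The composite TGANGCAA lay at 26.2% and 27.3% of the anti-CEBPA peaks, against 17.5% and 17.9% of all, and at 17.9% and 21.2% of the anti-ER peaks, against 14.3% and 13.7%. The Wilson 95% intervals of these 8 shares all included the share of all peaks of the list. The RUNX pattern TGTGGT lay at 19.0% and 21.2% of the anti-CEBPA peaks in p42 and p30 cells, against 16.0% and 16.8% of all. At the anti-ER peaks it was 25.6% and 25.0%, against 20.8% and 21.8%. The GATA pattern AGATAA lay at 2 of 42 anti-CEBPA peaks in p42 cells, or 4.76% (1.32 to 15.8), against 13.1%. In p30 cells it was 3.03% against 12.5%, and for anti-ER 7.69% and 11.5% against 11.3% and 12.2%. A control, the AP-1 pattern reversed to ACTNAGT, lay at 11.9% and 9.09% of the anti-CEBPA peaks, against 5.63% and 5.43% of all. At the anti-ER peaks it was 5.13% and 7.69%, against 5.73% and 5.59%. AP-1 itself, TGANTCA, lay at 7.14% and 6.06% of the anti-CEBPA peaks, against 7.29% and 7.34%. The E-box CACGTG lay at 4 of 39 anti-ER peaks in p42 cells, or 10.3% (4.06 to 23.6), against 3.20%. That was the only interval of any counted pattern to miss the share of its list. In the p30 anti-ER list the E-box share was 3.85% against 3.18%. PU.1 and NF-kB patterns were also counted.

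Of 28 further genes from the same pathways, 23 had a site of both antibodies in p42 cells and 22 in p30 cells, against 64.6% and 68.2% of all protein-coding loci. Untreated, 2 were called higher in H3K27ac in p30 cells and 0 lower, against 6.76% and 5.03% of all loci, and 4 had too little covered sequence. The 2 were Meis1, the HOX cofactor, with 19.0% covered in p42 and 30.4% in p30 cells, and Sox12, a relative of Sox4, with 0.323% and 1.74%. With LPS 6 were higher in p30 cells and 0 lower, against 18.7% and 2.05%. With LPS the covered share was higher past 1.5-fold at 1 gene and lower at 3 in p42 cells, and higher at 2 and lower at 0 in p30 cells, among the higher ones Adora2a, an adenosine receptor gene, in both, at 11.5% and 17.6% in p42 and 14.6% and 33.9% in p30 cells. All loci gave 0.989% and 13.6% in p42 and 3.66% and 2.58% in p30 cells. H3K4me1 was higher in p30 cells at 13 and lower at 0, against 36.4% and 6.41%. The best-ranked sites of both antibodies in p30 cells were those of Mecom at 291, Cdk6 at 363, Myb at 374, Bcl2l1 at 531, Mxd1 at 1679 and Max at 2960 of the anti-CEBPA list. Mecom had almost no H3K27ac, with 0.0532% of its locus covered in untreated p30 cells.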

How the data were processed

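Peak lists of 20 mouse ChIP samples were analysed as 10 lists. The authors trimmed reads with Trim Galore 0.6.6, aligned them with Bowtie2 to mm39 and called peaks against input with MACS2, after pooling replicates for the histone marks. The deposited lists give fold enrichment over input and −log10 of the p-value and q-value for each peak, with every q-value under 0.05. They hold no read counts, so depth is unknown. From there, peaks were ranked by −log10 p, with ties broken by fold enrichment, and placed by summit in GENCODE loci on GRCm39. Peaks overlapping by 1 bp were merged into regions or sites, and a start was the window from 1000 bp upstream to 100 bp downstream. Intervals are Wilson 95% intervals, which cover counting error only.

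The members, gene lists and the 1.5-fold and 1000 bp limits were chosen with earlier results of these data known. All members were named, with the best-ranked site and region of each locus, sites of one line alone, and the 6 pathway genes with the best-ranked sites. The further CEBPA sites of Nt5e, Cd34, Msi2 and Bcl2, the further H3K27ac regions of Nt5e, and Meis1, Sox12 and Adora2a, were picked after their values were seen. Alternatives were stricter q-values, other flanks, reciprocal overlap and lists of equal size. The counting was tested on simulated peaks. Scripts ran in Python 3.11.15 (scipy 1.17.1, pandas 2.3.3, numpy 2.4.6; figures with matplotlib 3.10.9). The human ATF4 list was not used here, and 0 columns belonged to other samples.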

Additional observations from a re-analysis of the deposited data

Results flagged for a closer look

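At 4 loci the H3K27ac covered sequence with LPS, divided by that without, lay on opposite sides of 1 in the lines. It was 0.894 in p42 and 1.14 in p30 cells at Sox4, and 0.789 and 1.08 at Mycn. At Myc it was 0.995 and 1.24, and at the Hoxa cluster 1.003 and 0.917. Each value compares 1 pooled list with another, and whether the lines differ in this was not tested. The p42 values at Myc and the Hoxa cluster lay next to 1. At Myc the p42 value was 1.05 with lists of equal size and 1.07 with a 20 kb flank, and at the Hoxa cluster the p30 value was 1.03 at q under 1e-05, so that there both lines lay above 1. The medians of all protein-coding loci were 0.835 in p42 and 0.990 in p30 cells.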

How the results depend on the processing

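Leaving out each locus in turn was added after seeing the data. No paired analysis was possible because each group had a single list, pooled over its samples or made from 1 library, and leaving out a replicate was not possible either. Of 635 values under alternative settings, 0 turned a called ratio to the other direction, while 6 ratios close to 1 that were not called crossed it. Beside those of Myc and the Hoxa cluster given above, these were Bcl2 for p30 against p42 with LPS, at 1.06 with a 20 kb and 1.002 with a 100 kb flank, and for LPS in p42 cells, at 1.02 with lists of equal size. Covered shares depend on the flank: 30 of 72 moved by over 1.5 times with 20 or 100 kb, at Sox4, Myc, the Hoxa cluster, Mycn and Cd34, such as Sox4 in untreated p42 cells at 27.2% and 7.61%. With peaks at q under 1e-05, the H3K27ac peaks in the loci numbered 131, 105, 130 and 132 in untreated p42, p42 with LPS, untreated p30 and p30 with LPS, and the H3K4me1 peaks 190 in p42 and 212 in p30. Counting presence at that q, 4 regions were gained and 18 lost with LPS in p42 cells, and 13 gained, 9 lost and 89 kept in p30 cells, with 13 in untreated p42 only and 17 in untreated p30 only, so the counts of gained and lost regions depend on weak peaks. With a flank of 100 kb, anti-CEBPA had 50 peaks in p30 cells. Sites of both antibodies in p42 cells and neither in p30 cells numbered 0 under a reciprocal overlap of 50%, and the reverse class 2 at q under 1e-05. The ratio of p30 to p42 at Sox4 with LPS passed 1.5-fold at q under 1e-05, at 1.64, and with the 100 kb flank, at 1.67. With lists of equal size, H3K4me1 at Nt5e was called lower in p30 cells, at 0.66, and Myc, at 1.38, and Cd34 were no longer called higher; Myc was 1.38 at q under 0.01 and 1.17 at q under 1e-05. Depth per list is unknown, so a missing peak is not evidence that a mark or factor was absent.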
